A study of Mus musculus with 2 samples.

Results

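The Ifitm family of interferon-induced transmembrane proteins was described in leukocytes of mite-treated mouse skin by its 4 members Ifitm1, Ifitm2, Ifitm3 and Ifitm6, of 27998 genes measured in all. They were taken by symbol, and each had counts in both libraries. The family was chosen with earlier results of the same 2 libraries known, among them its levels in both genotypes, so the differences between genotypes below are descriptions and none carries a test. The 2 groups were IL31RAKO mice, which lack the IL-31 receptor alpha chain and have the C57Bl/6 (B6) background, and WT C57Bl/6 mice. Both had been treated alike: house dust mite ointment (Biostir, from D. farinae) went onto shaved back skin in 2 weekly applications over 3 weeks, with 2% SDS given 2 hours earlier. No mite-free skin entered the comparison. Each genotype was 1 droplet library of live CD45+ cells, sorted from the pooled skin of 4 mice, so every difference is between 2 libraries. Ranges in brackets are 95% counting intervals; the spread between mice is not in them, and a few cells rich in a gene make them too narrow.

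IFITM proteins are small proteins of the cell surface and of endosomes and lysosomes. They stiffen membranes and hinder the fusion of enveloped viruses with the cell, and Ifitm3 is the member best known for restricting influenza virus in mice. Interferons induce several of them through a DNA element, the interferon-stimulated response element. IL-31 is made by activated T cells and is best known for its role in itch. Less is known of Ifitm6 than of the other members.

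The 4 genes lie within 63088 bases of mouse chromosome 7 (GENCODE models on GRCm38, the assembly also named mm10). Ifitm2 (ENSMUSG00000060591) spans 140954837 to 140955987 on the minus strand, Ifitm1 (ENSMUSG00000025491) 140967221 to 140969825 on the plus strand, Ifitm3 (ENSMUSG00000025492) 141009586 to 141010770 on the minus strand and Ifitm6 (ENSMUSG00000059108) 141015699 to 141017924 on the minus strand. All 4 are protein-coding. Stretches before their RefSeq starts are shown because the family is known for induction by interferon through that element. The RefSeq promoter windows (GRCm38.p6) run from 250 bases before a gene's start to 50 after it, and the stretch before any annotated start within the window is printed 5′ to 3′ on the strand of the gene, with capitals for the element. The element was searched on both strands as GAAA, any 2 bases and GAAA again.
Ifitm1: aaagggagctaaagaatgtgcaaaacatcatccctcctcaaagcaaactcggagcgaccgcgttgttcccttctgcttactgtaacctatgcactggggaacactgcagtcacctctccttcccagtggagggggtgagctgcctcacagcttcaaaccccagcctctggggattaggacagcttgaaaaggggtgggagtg
Ifitm2: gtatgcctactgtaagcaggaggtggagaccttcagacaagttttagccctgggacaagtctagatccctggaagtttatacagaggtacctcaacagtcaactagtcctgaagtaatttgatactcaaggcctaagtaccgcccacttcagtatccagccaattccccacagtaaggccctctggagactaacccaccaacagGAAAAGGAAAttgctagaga
Ifitm3: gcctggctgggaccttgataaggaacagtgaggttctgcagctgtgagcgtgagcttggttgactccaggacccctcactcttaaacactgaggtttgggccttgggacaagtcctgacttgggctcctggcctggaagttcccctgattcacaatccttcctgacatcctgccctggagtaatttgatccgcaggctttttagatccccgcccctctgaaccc
Ifitm6: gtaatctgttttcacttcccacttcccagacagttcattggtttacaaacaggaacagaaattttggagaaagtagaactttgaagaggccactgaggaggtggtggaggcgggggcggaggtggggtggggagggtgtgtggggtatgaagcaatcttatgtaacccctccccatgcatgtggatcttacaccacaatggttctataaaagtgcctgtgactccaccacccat
These lines cover chr7:140967826-140968027 for Ifitm1, chr7:140955988-140956211 for Ifitm2, chr7:141010771-141010994 for Ifitm3 and chr7:141016909-141017142 for Ifitm6. The Ifitm1 and Ifitm6 lines lie inside the gene spans given above. The regions before the outer starts of these 2 genes were not searched, so the members are not compared evenly. The Ifitm2 flank held 1 match, 46 bases before the RefSeq start. Ifitm3 had no match in its flank and 2 matches just inside the transcribed part, 2 and 19 bases after the RefSeq start.
Ifitm2 element: agGAAAAGGAAAtt
Ifitm3 elements: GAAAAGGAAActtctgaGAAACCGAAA
The Ifitm2 element lies at chr7:140955996-140956009 and the Ifitm3 pair at chr7:141010716-141010742, both on the minus strand. The first Ifitm3 match has the same 10 letters as the Ifitm2 match. The windows of Ifitm1 and Ifitm6 held no match, which says only that these letters are not in those windows. Among all 32851 promoter windows, 3.44% held a match and 0.225% held 2 or more. Of 25 interferon-stimulated genes of a textbook list with a window, 15 held one.

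The members' transcripts are related, so counts could in principle be shared between them. Over the last 300 bases, where a 3′ library reads, identity between pairs ranged from 49.7% for Ifitm1 with Ifitm6 to 65.2% for Ifitm1 with Ifitm2. The longest identical stretch between any pair was 69 bases over the whole transcripts (Ifitm2 with Ifitm3) and 26 bases within the last 300, against transcript reads of 98 cycles.

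The IL31RAKO library held 71333292 UMIs (unique molecular identifiers, 1 per captured RNA molecule) and gave 14619 cells with a median of 3181 UMIs, and the WT library held 57000499 UMIs and gave 11934 cells with a median of 2918.5 UMIs. The libraries shared 247 cell barcodes, where independent draws give 237. The targeted gene, Il31ra, had 26 UMIs in IL31RAKO cells and 11 in WT cells, so it lay near the limit of detection, and whether these 3′ tags fall outside the deleted part is not given, so they do not check the labels. Ptprc, which encodes CD45, had a UMI in 75.1% of IL31RAKO and 72.3% of WT cells. Cells were gated into 21 classes by marker genes, and the 14 that had at least 100 cells per library were compared. No gate took 3150 IL31RAKO cells (21.5%) and 3367 WT cells (28.2%), which stayed ungated. The gates rest on markers alone. T cells that passed the limits of no subset list form a class of their own, called T cells of no subset. Its leading genes included Blk and Cd163l1, markers of dermal gamma-delta T cells, so it can hold cells of several subsets. Free RNA was read from barcodes with 10 to 50 UMIs. Levels are CPM, the UMIs of a gene per 1000000 UMIs. Free RNA had Ifitm1 at 547 CPM in the IL31RAKO and 480 CPM in the WT library, Ifitm2 at 811 and 773 CPM, Ifitm3 at 584 and 718 CPM, and Ifitm6 at 21.1 and 12.7 CPM (4 and 3 UMIs). Free RNA made up at most 6.14% (Langerhans cells) to 11.5% (neutrophils) of the UMIs of a compared class in the IL31RAKO library and 4.74% (dermal gamma-delta T) to 18.3% (basophils) in the WT library, as estimated from markers that the class lacks.

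Ifitm1 was a gene of basophils and neutrophils in both libraries. Basophils, rare granulocytes that release histamine, had 8343 CPM (8099.6 to 8591) in IL31RAKO and 6874 CPM (6609.6 to 7147) in WT skin. Neutrophils had 5763 CPM in IL31RAKO and 5161 CPM in WT skin. Both classes lay far above free RNA, and no other compared class reached 1000 CPM. After thinning each cell to 500 UMIs, 87.2% of IL31RAKO and 83.6% of WT basophils held an Ifitm1 UMI, as did 79.3% and 71.9% of neutrophils. In dermal gamma-delta T cells, where the level lay within what free RNA could give, the thinned share was 0.971% in IL31RAKO and 2.26% in WT. Next in order came cDC1, dendritic cells that present antigen to CD8 T cells, with 844 CPM in IL31RAKO and 345 CPM in WT. Mature dendritic cells followed in IL31RAKO with 584 CPM, against 121 CPM in WT, and monocytes had 485 CPM in IL31RAKO and 167 CPM in WT. In IL31RAKO, cDC2 with 426 CPM, CD4 T cells with 387 CPM and CD8 T cells with 358 CPM followed with overlapping intervals, against 199, 55.8 and 125 CPM in WT. Langerhans cells, the dendritic-like cells of the epidermis, had 265 CPM in IL31RAKO and 127 CPM in WT, and regulatory T cells 224 and 164 CPM. T cells of no subset had 164 CPM in IL31RAKO and 36.4 CPM in WT, epidermal-type T cells 126 and 37.5 CPM, and dermal gamma-delta T cells 35.2 and 21.7 CPM. Macrophages, at 121 CPM in IL31RAKO and 51.2 CPM in WT, were near the bottom, and the WT value did not exceed the 52 CPM that free RNA could give. Neutrophils held 33.3% of all Ifitm1 UMIs of IL31RAKO cells and 21.2% of those of WT cells.

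Ifitm2 was the most widely detected member, with a UMI in 70.3% of IL31RAKO and 47.8% of WT cells before thinning. Neutrophils again led, with 5062 CPM in IL31RAKO and 4035 CPM in WT skin. Monocytes had 2630 CPM in IL31RAKO and 1756 CPM in WT skin, basophils 1731 and 1016 CPM, and macrophages 1509 and 821 CPM. The order neutrophil, monocyte, basophil, macrophage was the same in both libraries, and their counting intervals did not overlap within a library. Dendritic cells lay between macrophages and T cells. In cDC1 Ifitm2 had 1229 CPM in IL31RAKO and 629 CPM in WT, in cDC2 1048 and 748 CPM, in mature dendritic cells 1021 and 648 CPM, and in Langerhans cells 661 and 396 CPM. T cell classes lay lowest, with 586 CPM in IL31RAKO and 248 CPM in WT CD4 T cells at the upper end, and 145 CPM in IL31RAKO and 67.3 CPM in WT dermal gamma-delta T cells at the lower end. Between them lay regulatory T cells with 417 CPM in IL31RAKO and 202 CPM in WT, epidermal-type T cells with 273 and 119 CPM, CD8 T cells with 239 and 132 CPM and T cells of no subset with 230.4 and 86.2 CPM. Every one of the 14 classes exceeded what free RNA could give in both libraries.

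Among the 14 compared classes Ifitm3 was highest in monocytes, where it stood at nearly the same level in both genotypes: 3607 CPM (3550.1 to 3665) in IL31RAKO and 3413 CPM (3326 to 3501.5) in WT skin. Neutrophils had 1161 CPM in IL31RAKO and 772 CPM in WT, macrophages 886 and 383 CPM, and cDC2, dendritic cells that present antigen mainly to CD4 T cells, 632 and 351 CPM. Monocytes alone held 31.4% of the Ifitm3 UMIs of IL31RAKO cells and 30.4% of those of WT cells. Lower levels were seen in cDC1, with 379.7 CPM in IL31RAKO and 174 CPM in WT, in basophils with 333 and 357 CPM, and in mature dendritic cells with 252 and 107 CPM. Regulatory T cells had 225 CPM in IL31RAKO and 105.2 CPM in WT, Langerhans cells 152 and 85.5 CPM, CD4 T cells 147 and 76.1 CPM and CD8 T cells 112 and 49.0 CPM. T cells of no subset had 100.1 CPM in IL31RAKO and 52.3 CPM in WT, epidermal-type T cells 92.2 and 48.9 CPM, and dermal gamma-delta T cells 63.8 and 32.2 CPM. In 2 of the 14 WT classes, dermal gamma-delta T and epidermal-type T cells, Ifitm3 did not exceed the possible part of free RNA.

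Ifitm6 had a narrow distribution. Monocytes had 260.3 CPM (245 to 276) in IL31RAKO and 295 CPM (270 to 322) in WT skin, and neutrophils had 251 CPM (231 to 273) in IL31RAKO and 138 CPM (104.7 to 177) in WT skin. No other compared class exceeded 24.3 CPM, the value of cDC2 in IL31RAKO. Basophils had 13.1 CPM in IL31RAKO and 10.8 CPM in WT, cDC1 11.5 and 8.97 CPM, macrophages 10.7 and 2.63 CPM, and regulatory T cells 8.26 and 7.75 CPM. Mature dendritic cells had 8.52 CPM in IL31RAKO and no UMI in 103 WT cells, and the remaining classes had at most 4.40 CPM in IL31RAKO and 2.43 CPM in WT. Monocytes and neutrophils together were the source of most Ifitm6 UMIs, with 45.3% and 23.3% of those of IL31RAKO cells and 63.4% and 7.41% of those of WT cells. The 2 classes overlapped in level in IL31RAKO but not in WT. Ifitm6 and Ifitm3 were among the 10 leading genes of the monocyte gate although neither was used to draw it.

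**Figure D1:**
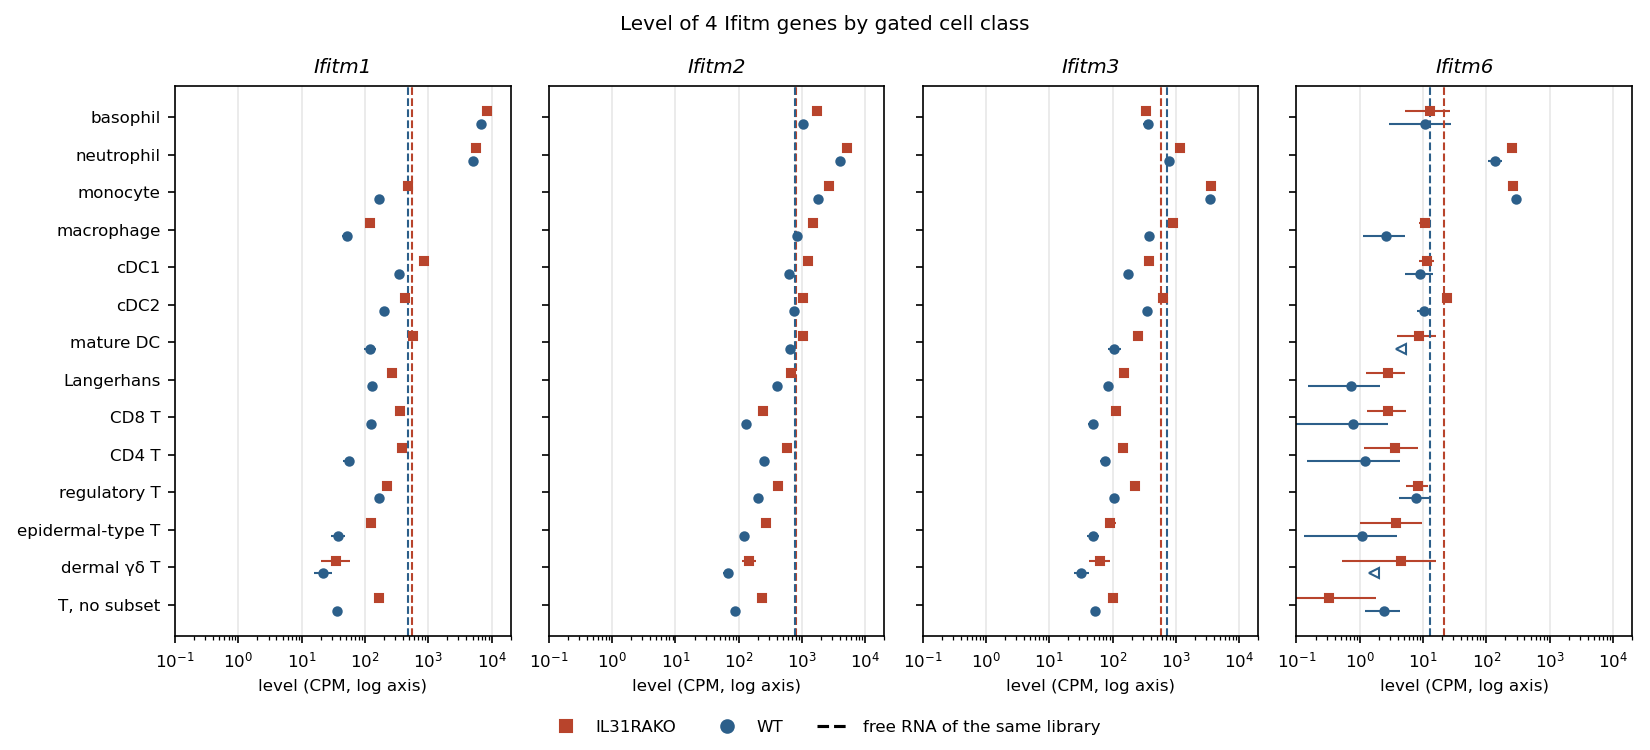
Level of each member (CPM, log axis) in 14 gated classes, with IL31RAKO squares above WT circles, bars for exact Poisson 95% intervals and dashed lines for free RNA of each library. Open triangles mark 3 UMIs where no UMI was seen. Ifitm1 peaks in basophils and neutrophils, Ifitm2 in neutrophils, Ifitm3 in monocytes at 3607 and 3413 CPM, and Ifitm6 in monocytes and neutrophils.

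Across the 28 class levels (14 classes in 2 libraries), the members fell into a graded order of likeness. Pearson's r of log2(CPM + 10) was 0.89 for Ifitm2 with Ifitm3, 0.87 for Ifitm3 with Ifitm6, 0.75 for Ifitm1 with Ifitm2 and for Ifitm2 with Ifitm6, 0.53 for Ifitm1 with Ifitm3 and 0.51 for Ifitm1 with Ifitm6. These points share libraries and cell classes, so r describes them only. Among 5029 genes, those nearest to Ifitm1 were Hdc, the enzyme that makes histamine (r = 0.89), Ptgs2, an enzyme of prostaglandin synthesis, Irg1, the enzyme that makes itaconate, Riok3, a kinase, and Cxcr2, a neutrophil chemokine receptor. Those nearest to Ifitm2 were the kinase Syk (0.92), Klf3, Pirb, Metrnl and the adaptor Tyrobp. Those nearest to Ifitm3 were Metrnl (0.93), Sirpb1c, the inhibitory receptor Cd300a, Nrros and Gm9733. Those nearest to Ifitm6 were Hp, which encodes haptoglobin (0.95), Gm9733, Thbs1, Gda and Sirpb1c. Hdc, Cxcr2 and Hp had served as gate markers.

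Summed over all cells, every member was higher in the IL31RAKO library. Ifitm1 had 629 CPM in IL31RAKO and 226 CPM in WT cells, a ratio of 2.78 (2.72 to 2.85). Ifitm2 had 1201 CPM in IL31RAKO and 542 CPM in WT cells, a ratio of 2.22 (2.18 to 2.25). Ifitm3 had 786 CPM in IL31RAKO and 415 CPM in WT cells, a ratio of 1.89 (1.86 to 1.92). Ifitm6 had 39.2 CPM in IL31RAKO and 17.2 CPM in WT cells, a ratio of 2.28 (2.10 to 2.47). Of 13307 genes with 50 or more UMIs, 5.37% were higher and 7.92% lower by 1.5-fold or more in this comparison, and the median log2 ratio over them was -0.10. The mix of cells differed too, with 1299 neutrophils and 807 monocytes in IL31RAKO, against 302 neutrophils and 355 monocytes in WT. Held at the WT mix of classes, the ratios came to 1.99 for Ifitm1, 1.66 for Ifitm2, 1.502 for Ifitm3 and 1.37 for Ifitm6, and at the IL31RAKO mix to 1.64, 1.60, 1.48 and 1.29 in the same order. Each ratio was closer to 1 at a fixed mix, and each stayed above 1. The fixed mix had 22 classes, 1 of them the ungated cells, whose own mix was not held. In ungated cells Ifitm1 had 442 CPM in IL31RAKO and 148 CPM in WT, Ifitm2 973 and 451 CPM. There Ifitm3 had 728 CPM in IL31RAKO and 296 CPM in WT, and Ifitm6 24.5 and 8.80 CPM. In summed counts, fewer cells of a type and less RNA per cell cannot be told apart, which is why the classes are given one by one below.

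Within classes, Ifitm1 was higher by at least 1.5-fold in IL31RAKO in 11 of 14 classes. The background, the share of all genes with 50 or more UMIs called higher and called lower, was 3.27% and 3.95% in CD4 T cells, 3.81% and 3.8% in CD8 T cells, 4.15% and 3.12% in Langerhans cells, 5.35% and 7.83% in basophils and 4.65% and 3.06% in cDC1. It was 1.95% and 2.97% in cDC2, 6.08% and 12.6% in dermal gamma-delta T cells, 3.16% and 3.83% in epidermal-type T cells, 4.56% and 2.85% in macrophages and 6.47% and 5.97% in mature dendritic cells, and 4.34% and 4.87% in monocytes, 7.87% and 10.6% in neutrophils, 3.61% and 4.06% in T cells of no subset and 5.22% and 2.89% in regulatory T cells. No member was called lower in any class. The ratios were lowest in the 2 leading classes of Ifitm1: the ratio was 1.12 (1.07 to 1.17) in neutrophils and 1.21 (1.16 to 1.27) in basophils. The highest ratios were in other classes. CD4 T cells had 387 CPM in IL31RAKO and 55.8 CPM in WT, a ratio of 6.93 (5.55 to 8.73). Mature dendritic cells had a ratio of 4.81 (3.82 to 6.14) and T cells of no subset 4.51 (3.78 to 5.41). Epidermal-type T cells had 3.35 (2.49 to 4.55), and 2.53 without the top cell of each library. Monocytes had 2.91 (2.57 to 3.31), CD8 T cells 2.86 (2.53 to 3.25) and cDC1 2.45 (2.25 to 2.66). Dermal gamma-delta T cells passed the fold with a ratio of 1.62, but its interval (0.848 to 2.98) held 1. In regulatory T cells the ratio was 1.37 (1.19 to 1.57), but 1 WT cell held 197 of the 296 WT UMIs, and without the top cell of each library it was 3.18.

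Ifitm2 was the most even member, with its interval above 1 in all 14 classes and a ratio of 1.5 or more in 11. Its ratios ran from 1.25 (1.19 to 1.32) in neutrophils to 2.67 (2.36 to 3.03) in T cells of no subset. The monocyte ratio was 1.498 (1.44 to 1.56), just under the limit, and the basophil ratio 1.70 (1.51 to 1.93). Ifitm3 was higher by 1.5-fold or more in 12 of 14 classes, among them macrophages at 2.32 (2.18 to 2.46), mature dendritic cells at 2.36 (1.82 to 3.11) and cDC1 at 2.19 (1.94 to 2.47). The other two were monocytes, with a ratio of 1.06 (1.03 to 1.09), and basophils, with 333 CPM in IL31RAKO and 357 CPM in WT and a ratio of 0.933 (0.741 to 1.18). In basophils 1 WT cell held 47 of 132 UMIs, and without the top cell of each library the ratio was 1.26; without doublets the log2 ratio was 0.75, past the 1.5-fold limit.

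Ifitm6 had 50 or more UMIs in 5 classes and was called higher in 3 of them. Neutrophils had a ratio of 1.83 (1.40 to 2.43), cDC2 had 24.3 CPM in IL31RAKO and 10.2 CPM in WT with a ratio of 2.39 (1.84 to 3.14), and macrophages had 95 UMIs in IL31RAKO and 8 in WT with a ratio of 4.09 (1.99 to 9.74). In cDC1 the ratio was 1.28 (0.730 to 2.37), and in monocytes, where its level was highest, it was 0.882 (0.793 to 0.982), a direction that turned after thinning to 1000 UMIs (log2 0.10). In T cells of no subset 1 UMI in IL31RAKO stood against 11 in WT.

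**Figure D2:**
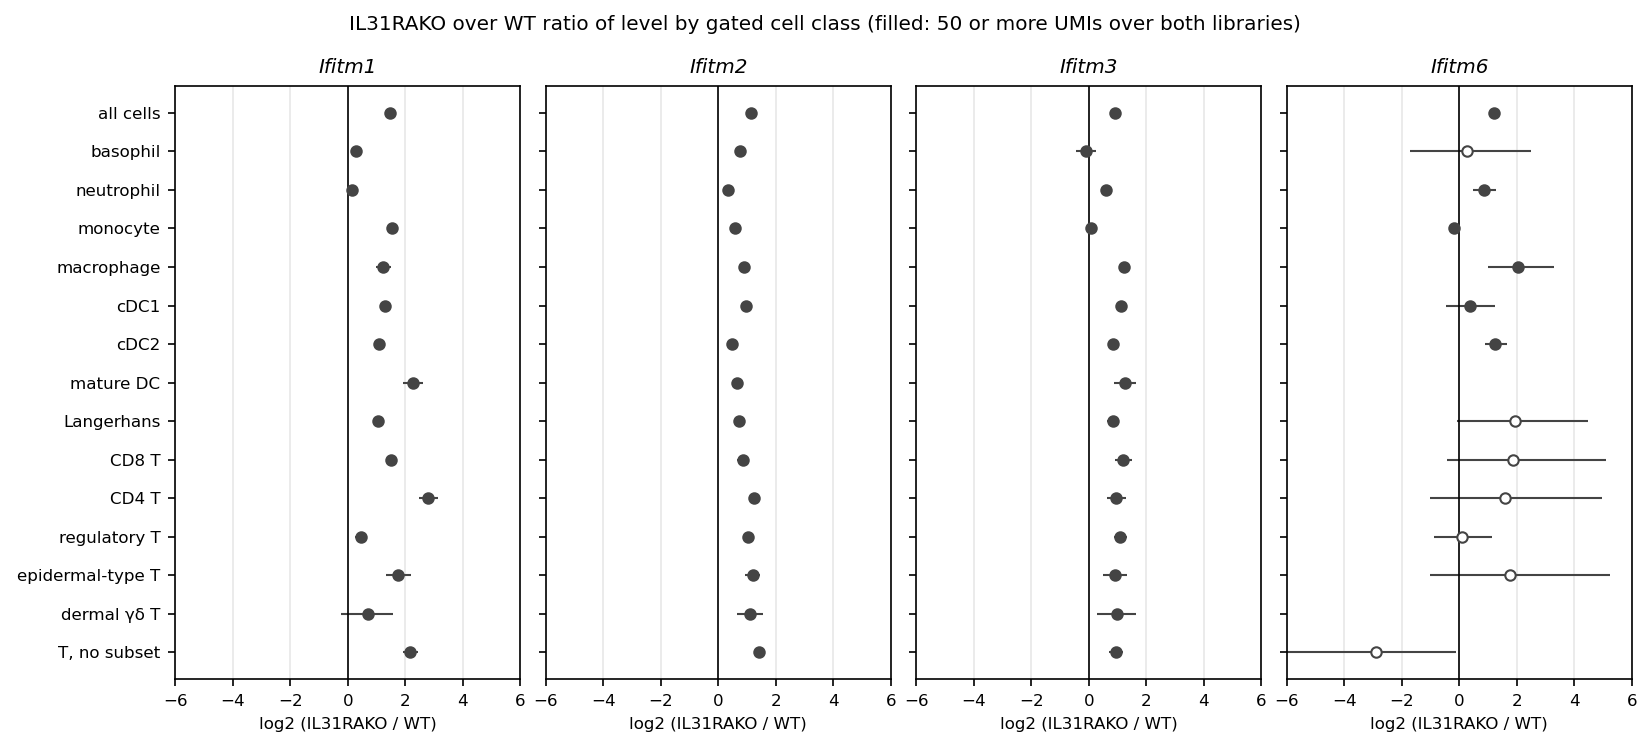
Log2 ratio of IL31RAKO over WT for each member over all cells and in 14 gated classes, with exact 95% counting intervals. Open points have under 50 UMIs over both libraries, and no point is drawn where WT had no UMI. Ifitm1, Ifitm2 and Ifitm3 lie right of 0 in nearly every class, while the monocyte points of Ifitm3 (0.08) and Ifitm6 (-0.18) lie next to it.

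The members were higher together in most classes. Ifitm1 and Ifitm2 had ratios on the same side of 1 in 14 of 14 classes, Ifitm1 and Ifitm3 in 13 of 14, and Ifitm2 and Ifitm3 in 13 of 14. Ifitm6 matched Ifitm1 and Ifitm2 in 10 of 12 classes with a ratio and Ifitm3 in 9 of 12. These counts come from the contrast that the family was chosen on. Macrophages were the only class with all 4 members called higher, beside a background of 4.56%. Monocytes had 1 member called higher, Ifitm1, beside 4.34%. Basophils had 1, Ifitm2, beside 5.35%. Neutrophils had 2, Ifitm3 and Ifitm6, beside 7.87%.

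RNA of 2 neutrophil markers was also higher outside neutrophils in IL31RAKO. S100a8 and S100a9, which encode the subunits of calprotectin and mark neutrophils, summed to 63975 CPM in IL31RAKO and 46896 CPM in WT neutrophils and to 1258 CPM in IL31RAKO and 1083 CPM in WT free RNA. In the 13 other classes they ranged from 213 to 901 CPM in IL31RAKO and from 47.3 to 121 CPM in WT. They were higher in IL31RAKO in each, with a median ratio of 4.89. The lowest ratio was 2.07 in epidermal-type T cells and the highest 17.5 in basophils, where the Ifitm1 ratios were 3.35 and 1.21. Cells of the keratinocyte gate, not among these classes, also held S100a8 and S100a9, at 1993 CPM in IL31RAKO and 1186 CPM in WT. CD4 T cells had 221 CPM in IL31RAKO and 95.9 CPM in WT, and macrophages 341 and 62.7 CPM. At the proportion seen in neutrophils, this amount would carry a median of 8.24% of the Ifitm1 level in IL31RAKO and 5.79% in WT, up to 59.1% in IL31RAKO dermal gamma-delta T cells. It would carry a median of 4.12% and 2.15% for Ifitm2 and 3.44% and 1.00% for Ifitm3, again IL31RAKO before WT. For Ifitm6 it would carry a median of 21.2% in IL31RAKO and 7.002% in WT, and in IL31RAKO T cells of no subset 289%, more than the level itself, which was 1 UMI. With that amount subtracted, an alternative added after the data were seen, the median log2 ratio over these 13 classes was 1.25 for Ifitm1, 0.86 for Ifitm2 and 0.92 for Ifitm3, against 1.29, 0.88 and 0.95 as measured in the same classes. The dermal gamma-delta T ratio of Ifitm1 then changed sign, to -0.19 on the log2 scale. With 1 library per genotype, a change within cells and a difference between sorts or droplet runs cannot be told apart.

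At the level of single cells, the number of members detected followed the class. At 500 UMIs per cell, 81.8% of IL31RAKO and 72.5% of WT neutrophils held UMIs of 2 or more members, as did 57.2% and 40.0% of monocytes and 52.3% and 39.1% of basophils. Macrophages had 16.3% in IL31RAKO and 5.67% in WT. In the 6 T cell classes the share did not exceed 5.44%, the value of CD4 T cells in IL31RAKO. All 4 members together were seen in 4.39% of IL31RAKO and 2.32% of WT neutrophils.

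**Figure D3:**
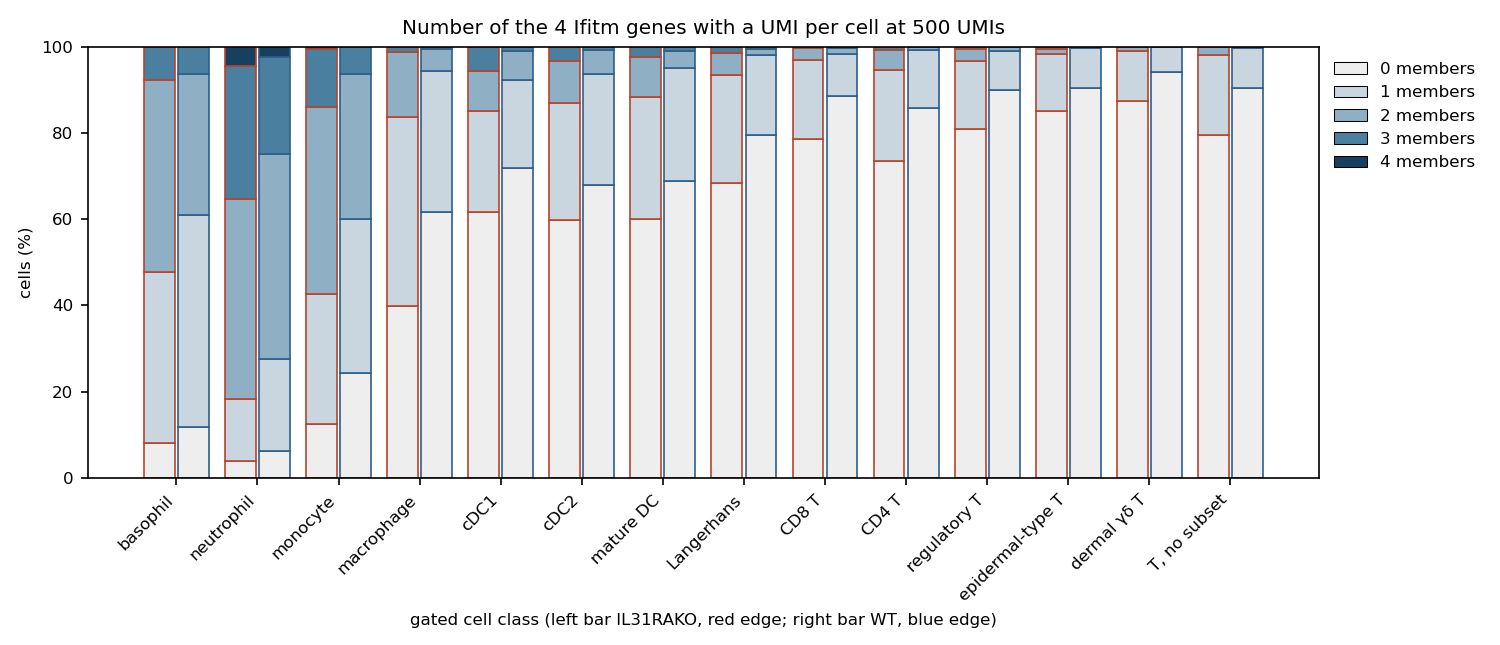
Share of cells (%) with UMIs of 0 to 4 members after thinning to 500 UMIs, by gated class, with the left bar IL31RAKO and the right bar WT. Dark segments are largest in neutrophils, where 81.8% of IL31RAKO and 72.5% of WT cells held 2 or more members.

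Ifitm2 was detected more often in cells that also held Ifitm1. The share of cells with Ifitm2 was higher in Ifitm1-positive than in Ifitm1-negative cells, with intervals that did not overlap, in 10 of 14 sets of cells (a class in 1 library) with enough cells. In neutrophils Ifitm2 was seen in 90.1% of Ifitm1-positive and 78.1% of Ifitm1-negative cells in IL31RAKO, and in 89.4% and 74.1% in WT. In IL31RAKO cDC1, 71.2% of Ifitm1-positive and 24.4% of Ifitm1-negative cells held Ifitm2, and 42.4% and 8.22% held Ifitm3. Those positive cDC1 also held more RNA of the neutrophil marker list, 1636 CPM against 496 CPM in the negative cells. Doublets were marked in 33.9% of the positive and 20.7% of the negative cDC1. Ifitm1 and Ifitm3 stood apart in this way in 5 of 14 sets, and Ifitm2 and Ifitm3 in 6 of 26. Ifitm6 stood apart in this way with Ifitm3 in 3 of 18 sets, and with Ifitm1 and Ifitm2 in none of 14 and 26. Outside monocytes and neutrophils no compared class had more than 24.3 CPM of Ifitm6, too little for these shares to decide. The share of all genes that would stand apart in this way was not counted for any of these pairs. By summed counts, cDC2 had Ifitm6 at 84.7 CPM in Ifitm1-positive and 17.8 CPM in Ifitm1-negative IL31RAKO cells, and at 14.1 and 9.98 CPM in WT. In monocytes 11.5% of Ifitm3-positive and 3.097% of Ifitm3-negative cells held Ifitm6 in IL31RAKO, as did 15.2% and 2.78% in WT.

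Cells with and without an Ifitm1 UMI at 500 UMIs were compared within 10 classes other than basophils, neutrophils, dermal gamma-delta and epidermal-type T cells. The 10 genes with the highest fold in Ifitm1-positive over Ifitm1-negative IL31RAKO cells were read again in WT cells; this reading was chosen after the data were seen and carries no test. Among CD8 T cells, 58 of 739 IL31RAKO and 23 of 658 WT cells were Ifitm1-positive. First by fold was Gzma (granzyme A, a protease of killer cells), which had 992 CPM in Ifitm1-positive and 71.1 CPM in Ifitm1-negative IL31RAKO cells, and 3029.8 and 115 CPM in WT. Ccl5, a chemokine of effector T cells, had 1852 and 320 CPM in IL31RAKO and 2248 and 229 CPM in WT. Ly6c2, a surface protein of activated and memory CD8 T cells, had 724 and 97.0 CPM in IL31RAKO and 331 and 43.1 CPM in WT, and Ifitm2 had 877 and 188 CPM in IL31RAKO and 760 and 109 CPM in WT. The 8 neutrophil markers summed to 255 CPM in positive and 258 CPM in negative IL31RAKO CD8 T cells, but to 485 and 69.9 CPM in WT. Among CD4 T cells, 34 IL31RAKO and 13 WT cells were positive. There Ifng, which encodes interferon-gamma, had 1093 CPM in positive and 69.8 CPM in negative IL31RAKO cells and 188 and 60.9 CPM in WT, and Gzmb (granzyme B) had 1084 and 204 CPM in IL31RAKO and 353 and 164 CPM in WT. Of the 10 leading genes in CD4 T cells, 4 were lower in the positive cells in WT (Serpinb6b, Ly6c2, Fasl and Med13l), against 0 of 10 in CD8 T cells. In mature dendritic cells 8 of 10 were lower in the positive cells in WT. Doublets were marked in 0% of the positive and 5.14% of the negative CD4 T cells in IL31RAKO, and in 15.4% and 8.15% in WT.

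In regulatory T cells, cDC1, cDC2, monocytes and macrophages the Ifitm1-positive cells held more RNA of neutrophil markers in both libraries. In Langerhans, mature dendritic and CD4 T cells the positive cells held more in IL31RAKO only. In regulatory T cells the positive cells (51 in IL31RAKO, 13 in WT) had S100a8 at 1511 CPM and the negative cells at 151 CPM in IL31RAKO, and at 253 and 25.0 CPM in WT, with Slpi, G0s2 and Il1b also among the leading 10. Scrublet marked 33.3% of the positive and 10.7% of the negative regulatory T cells as doublets in IL31RAKO, and 23.1% and 11.1% in WT. In cDC1 (59 positive cells in IL31RAKO, 15 in WT) the 8 neutrophil markers summed to 1636 CPM in positive and 496 CPM in negative IL31RAKO cells and to 981 and 58.2 CPM in WT. In macrophages they summed to 1326 and 418 CPM in IL31RAKO and to 390 and 134 CPM in WT. In monocytes they summed to 1317 CPM in positive and 583 CPM in negative IL31RAKO cells and to 1501 and 192 CPM in WT, and in cDC2 to 695 and 354 CPM in IL31RAKO and 197 and 96.8 CPM in WT. Langerhans cells had 2263 CPM in positive and 367 CPM in negative IL31RAKO cells, and 73.5 and 143 CPM in WT. Mature dendritic cells had 1093 and 486 CPM in IL31RAKO, and 53.9 and 82.1 CPM in WT. CD4 T cells had 307 and 274 CPM, and 70.6 and 118 CPM. Doublets were 52.6% and 30.9% of IL31RAKO Langerhans cells (WT 21.4% and 22.3%). They were 44.4% and 38.4% of IL31RAKO mature dendritic cells (WT 33.3% and 15.5%). The part of neutrophil RNA in these Ifitm1 differences was not tested beyond the subtraction above.

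A list of 34 interferon-stimulated genes in the files was set beside the members. Over all cells, 13 of the 33 listed genes with 50 or more UMIs were called higher in IL31RAKO and none lower. The background there was 5.37% of genes called higher, and the median log2 ratio of the list was 0.48. Cmpk2, Rtp4 and Rsad2, all antiviral effectors or interferon-induced proteins, led with ratios of 2.19, 2.15 and 2.15, and Igtp, Gbp2 and Herc6 were lowest with ratios of 0.95, 0.998 and 0.999. In macrophages 16 of 33 were called higher and none lower, beside a background of 4.56% of genes called higher. There Ifit2 had 6.55 CPM in IL31RAKO and 1.97 CPM in WT (ratio 3.33), Cmpk2 a ratio of 2.95 and Ifit1 2.78, while Gbp2 had 0.755. In monocytes the list ran the other way: 0 of 32 were called higher and 10 lower, beside a background of 4.87% of genes called lower, with Gbp2 at 19.3 CPM in IL31RAKO and 44.4 CPM in WT, Rsad2 at 10.7 and 23.4 CPM and Ifit1 at 8.35 and 18.1 CPM. Monocytes had the highest summed level of the list among the compared classes in both libraries, as they had for Ifitm3. The sum was 4505 CPM in IL31RAKO and 4452 CPM in WT, against 2300.1 and 2332 CPM in free RNA. Ifi27l2a (1510 CPM in IL31RAKO and 1288 CPM in WT) and Ly6e (1390 and 1256 CPM) were the largest parts of the monocyte sum. Their ratios were 1.17 and 1.11, so the sum speaks mainly for these genes. In monocytes Ifitm1 and Ifitm2 had ratios of 2.91 and 1.498 where 10 interferon-stimulated genes were lower, and in macrophages all 4 members and 16 of these genes were higher. The other classes are given with the background in brackets. Called higher were 8 of 24 in Langerhans cells (4.15%), 7 of 29 in cDC2 (1.95%) and 7 of 16 in neutrophils (7.87%). Dermal gamma-delta T cells had 4 of 7 (6.08%), CD8 T cells 3 of 16 (3.81%) and CD4 T cells 2 of 12 (3.27%). Mature dendritic cells had 2 of 10 (6.47%), cDC1 1 of 15 (4.65%) and regulatory T cells 1 of 20 (5.22%). T cells of no subset had 1 of 19 (3.61%), epidermal-type T cells 1 of 10 (3.16%) and basophils 1 of 5 (5.35%). The counts of cDC1, regulatory T cells and T cells of no subset lay near the background. Called lower were 3 in mature dendritic cells (5.97%) and 1 each in epidermal-type T cells (3.83%) and basophils (7.83%).

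Within a class and library, cells were also split by how many UMIs of the interferon list they held at 500 UMIs per cell. Abundant listed genes weigh most in such a split. Ifi27l2a had 841 CPM and Ly6e 843 CPM of a list sum of 2910 CPM in IL31RAKO macrophages. Among IL31RAKO macrophages Ifitm3 was seen in 38.3% (35.1 to 41.6) of cells with 2 or more list UMIs and 13.03% (10.8 to 15.5) of cells with none. The shares in WT macrophages were 18.6% (14.3 to 23.5) and 9.98% (7.31 to 13.2). In cDC2 the shares were 30.6% and 12.004% in IL31RAKO and 18.2% and 7.17% in WT. Over 26 sets of cells, the shares in cells with 2 or more and with no list UMIs were compared. Their intervals did not overlap in 6 sets for Ifitm3, in 3 for Ifitm2 and in 0 for Ifitm1 and Ifitm6. Where they did not overlap, the higher share lay beside more list UMIs. For Ifitm3 they overlapped in 20 sets. The share of all genes that would stand apart in this way was not counted. Ifitm6 had at most 24.3 CPM outside monocytes and neutrophils, and Ifitm1 had 121 and 51.2 CPM in IL31RAKO and WT macrophages. These counts therefore do not decide whether the members differ. In IL31RAKO monocytes Ifitm1 was seen in 11.3% of cells with 2 or more list UMIs and 19.3% of cells with none, with overlapping intervals.

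**Figure D4:**
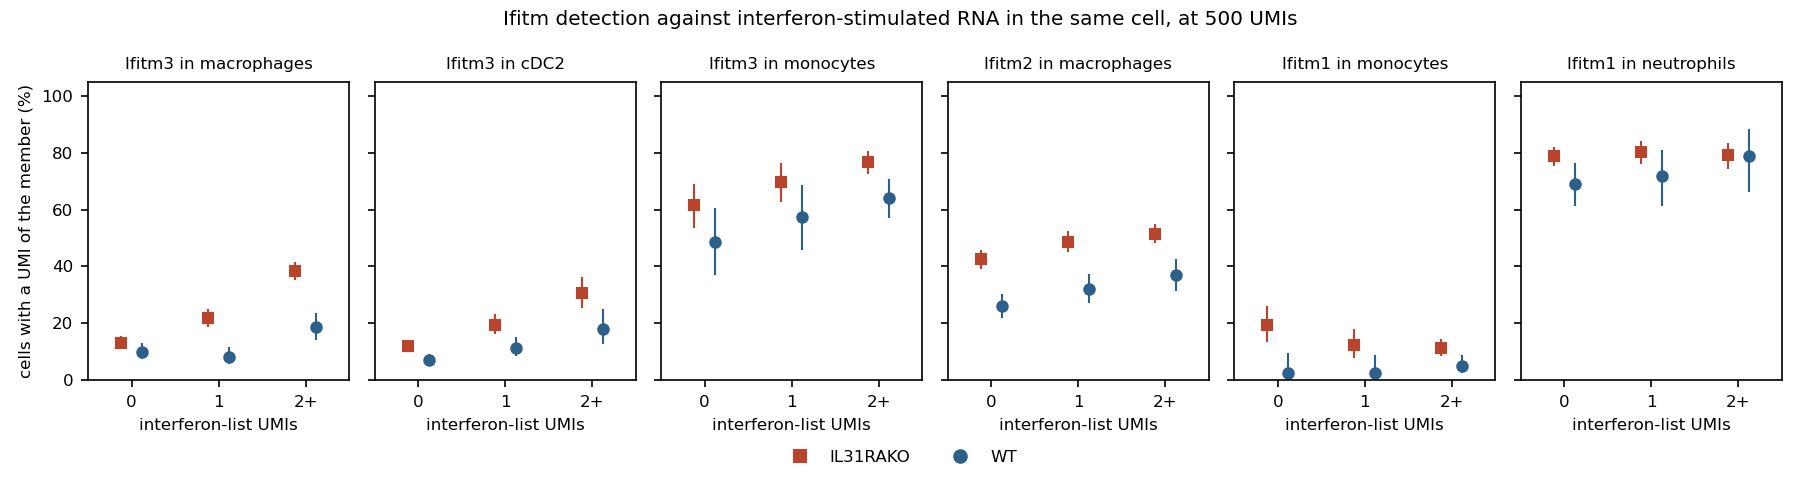
Share of cells (%) with a UMI of the named member against UMIs of the interferon-stimulated list in the same cell (0, 1, 2 or more) after thinning to 500 UMIs, IL31RAKO squares left of WT circles, with exact binomial 95% intervals. Ifitm3 climbs from 13.03% to 38.3% over the IL31RAKO macrophages.

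Genes known to act around the family were counted in the same way. Of 16 measured interferon receptors and signal transducers, none was called in either direction over all cells, with Irf7, a transcription factor of the interferon response, highest at a ratio of 1.48 (28.7 CPM in IL31RAKO and 19.4 CPM in WT). Of 9 genes whose proteins modify or bind IFITM proteins, 1 was called higher over all cells, beside a background of 5.37%. It was Cd81, a tetraspanin (182 CPM in IL31RAKO and 119 CPM in WT, ratio 1.53). The ubiquitin ligase Nedd4 was lowest at 0.729 and the methyltransferase Setd7 followed at 0.817. In monocytes 3 of those 9 were called lower, beside a background of 4.87%: Nedd4 (0.350), the demethylase Kdm1a (0.538) and Setd7 (0.622). The interval of Setd7 (0.348 to 1.13) held 1. Of 9 other antiviral factors, Ch25h, which makes 25-hydroxycholesterol, was called lower over all cells (0.994 CPM in IL31RAKO and 1.82 CPM in WT) and none higher. The background there was 7.92% of genes called lower. Of the interferon genes only Ifng had 50 or more UMIs, with 12.3 CPM in IL31RAKO and 19.1 CPM in WT, and it was called lower over all cells. By class it had 50 or more UMIs in 4, with log2 ratios of 1.19 in CD4 T cells, where it was called higher, 0.38 in T cells of no subset, -0.31 in CD8 T cells and -0.42 in epidermal-type T cells. Among other genes of the family, Ifitm5 had 92 UMIs in IL31RAKO and 35 in WT, Ifitm10 had 108 and 138, and Ifitm7 had none in 14619 IL31RAKO cells, which allows a share of up to 0.0205% of cells with a UMI, and none in 11934 WT cells, which allows up to 0.0251%.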

How the data were processed

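Live CD45+ skin cells were measured with a 10x 3′ version 2 kit. The deposited values were raw UMI counts per gene and barcode, empty droplets included. Per the submitters' processing notes, Cell Ranger 3.1, Seurat 3.2.2 and build mm10 were used, with no role given. Barcodes with 500 or more UMIs, 250 or more genes and under 10% mitochondrial UMIs were kept (14619 IL31RAKO, 11934 WT). Cells were gated by mean z-scores of marker lists, with limits set after seeing the data, the member levels included. UMIs were summed per class and library, scaled to CPM and compared as IL31RAKO over WT ratios with exact conditional 95% intervals; levels had exact Poisson and shares exact binomial intervals. All cover counting error only. Called meant 1.5-fold with 50 or more UMIs. With 1 library per genotype no test was run. Cells were thinned to 500 UMIs for shares. Cells marked as doublets were kept. They were those with the highest Scrublet scores, at a share set in advance as 0.8% per 1000 cells. That share came to 12.1% of IL31RAKO and 9.83% of WT cells, so it is no measured doublet rate. Members and lists were chosen with earlier results of these data known. Named were the members, the 3 highest and 3 lowest genes of a list, and the 5 genes nearest to each member in profile; genes of Ifitm1-positive cells were named after their values were seen, and not every gene the rule allows is printed. The interval step was tested on simulated sums that held counting error only. They had no cells rich in a gene, so that test says nothing about such cells. Python 3.11.15, numpy 2.4.6, scipy 1.17.1 and scanpy 1.11.5 were used. Protein sequences were not used here.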

Additional observations from a re-analysis of the deposited data

Results flagged for a closer look

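Ifitm6 moved in opposite directions in 2 related classes. Its log2 ratio of IL31RAKO over WT was 2.03 in macrophages, where it was scarce (10.7 CPM in IL31RAKO and 2.63 CPM in WT), and -0.18 in monocytes, where it was abundant (260.3 CPM in IL31RAKO and 295 CPM in WT). After thinning to 1000 UMIs the monocyte value was 0.10, so the opposite directions did not hold there. The difference between the classes was not tested.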

How the results depend on the processing

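No paired analysis was possible because each genotype was 1 library, so no replicate could be left out either. Of 466 class ratios under 9 alternatives, 15 changed sign, 2 of them for values called or with an interval that excluded 1: the log2 ratio of Ifitm6 in monocytes was 0.10 after thinning to 1000 UMIs, and that of Ifitm1 in dermal gamma-delta T cells -0.19 with neutrophil RNA subtracted. Values moved beyond their counting interval in 81 cases, some of the 15 included. The Ifitm1 median log2 ratio over classes was 1.05 without doublets and 1.72 with free RNA subtracted, where Ifitm2 had 1.03 and Ifitm3 1.64; that subtraction was not run for all cells summed. Over all cells, median-of-ratios scaling gave 1.58 for Ifitm1, 1.25 for Ifitm2 and 1.02 for Ifitm3. Thinning to 1000 UMIs gave 1.64, 1.36 and 1.14 in that order and 1.64 for Ifitm6. Under 5% mitochondrial UMIs gave Ifitm3 0.95. Classes were counted as higher or lower where the interval excluded a ratio of 1. With classes of 50 or more cells allowed, 1 class was lower for Ifitm3. Ifitm6 was lower in 1 class with 1000 or more UMIs, under 5% mitochondrial UMIs, without doublets, with free RNA subtracted and with neutrophil RNA subtracted, and in 0 after thinning, against 2; it was higher in 2 classes after thinning, against 4, and in 2 with neutrophil RNA subtracted, against 3 in the same classes, since neutrophils were not part of that step. The causes were not tested. Without doublets the log2 ratio of Ifitm1 was 0.05 in basophils, 0.89 in epidermal-type T cells and 1.23 in regulatory T cells, and that of Ifitm3 in basophils 0.75. With 10 or more UMIs as the limit for a call, the background share moved in 29 of 30 comparisons, for example to 8.94% called higher in CD4 T cells. Counts of Ifitm6 limit its ratios outside monocytes and neutrophils.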

Other observations

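The sort for CD45 left small groups of cells with markers of other skin cells, too few to compare but with distinct member levels. Cells of the endothelial gate (34 in IL31RAKO, 76 in WT) had Ifitm3 at 4082 CPM (3835 to 4341) in IL31RAKO and 4491 CPM (4296 to 4693) in WT, the highest values of any gate in their libraries, and Ifitm2 at 2190 CPM in IL31RAKO and 2148 CPM in WT. Cells of the fibroblast gate (110 in IL31RAKO, 88 in WT) had Ifitm3 at 1609 CPM in IL31RAKO and 1813 CPM in WT, and Ifitm2 at 1462 and 1084 CPM. Cells of the keratinocyte gate (85 in IL31RAKO, 149 in WT) had Ifitm3 at 1237 CPM in IL31RAKO and 1200 CPM in WT and Ifitm2 at 666 and 687 CPM. The leading genes of the endothelial gate held none of its own markers, so it is named by its gate only. NK cells (48 in IL31RAKO, 49 in WT) had 54 Ifitm1 UMIs in IL31RAKO and 4 in WT, with 28 of the 54 in 1 cell. Whether these gates differ from the compared classes was not tested.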
